A study of Mus musculus with 24 samples.

Results

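Wildtype mouse embryonic fibroblasts held at 43 °C for the labelled time were compared with wildtype fibroblasts kept at 37 °C, on the 6 of the 24 arrays of the series whose labels give 240 min for that genotype. The 3 heat shock arrays and the 3 baseline arrays were chosen by genotype, treatment and time in their labels, and each holds 1 culture labelled with Cy5 against a common mouse reference RNA in Cy3. The cells were embryonic fibroblast cultures from day 13.5 embryos of C57BL6 parents that each carried 1 working copy of CHIP; both groups were CHIP(+/+), and both were grown with β-mercaptoethanol. The series also holds CHIP(-/-) cultures and a 30 min label for every combination. Stub1 encodes CHIP, which attaches ubiquitin to clients of HSP70 and HSP90, and the title of the series names its interaction with DAXX and the p53 programme of cell death. The labels speak of 3 biological replicates per condition and do not say whether cultures came from separate embryos. A primary culture can hold more than fibroblasts, and in such bulk RNA fewer cells of a type and less RNA per cell cannot be told apart.

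Heat unfolds proteins, and cells answer through HSF1, a transcription factor that HSP70 and HSP90 hold inactive until unfolded proteins draw the chaperones away. HSF1 then binds repeats of the bases GAA and their complement, called heat shock elements, and switches on HSP70, HSP40, HSP110 and small heat shock proteins. During severe heat shock, transcription of many other genes and splicing are known to decline while HSP70 RNA accumulates. Transcripts with a short half-life, such as those of growth factor response genes, are the quickest to follow a change in synthesis.

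The slides and the time labels bear on every value. The 3 baseline arrays and heat shock array 1 lay on 1 slide, and heat shock arrays 2 and 3 on another that held no wildtype baseline array. With slide as a fixed block, which leaves heat shock array 1 to carry the comparison, 618 genes were called in place of 4243. Among the genes called lower, the median change was -0.24, -0.34 and -0.39 on heat shock arrays 1, 2 and 3 against the baseline mean, on the log2 scale. The time labels conflict. Each of the 24 columns in the authors' value table followed the scanner values of a sample deposited under the opposite time, with genotype, treatment and number unchanged. Apart from a constant scale, baseline columns were compared as deposited. Heat shock columns were compared after the mean of the baseline columns of their genotype and time label was added to them. No source used here settles which is correct, and the times given are the ones under which scanner files were deposited.

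Values are log2 ratios of sample over reference RNA, so 1 unit is a doubling, and a change is the mean of the 3 heat shock arrays minus the mean of the 3 baseline arrays. Between 44.7% and 45.5% of probes were well above background in Cy5 on the heat shock arrays, against 46.6% to 48.6% on the baseline arrays. Arrays correlated at 0.988 to 0.993 within the heat shock group, 0.994 within the baseline group and 0.966 to 0.980 between the groups. Stub1 lay at -0.15, -0.06 and -0.09 on the heat shock arrays and at -0.23, -0.18 and -0.24 on the baseline arrays (change 0.12, adjusted p = 0.21 in limma), so the gene for CHIP itself did not pass the test.

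Hspa1a, which encodes the heat-inducible cytosolic HSP70, had the largest change of the 13486 genes tested. It reached 4.04, 1.39 and 1.72 on the heat shock arrays, against -0.89, -0.93 and -0.85 on the baseline arrays. The groups did not overlap, the change was 3.27 (SE 0.38) or 9.66-fold, and the adjusted p was 8.4e-07 in limma. Heat shock array 1 stood well above the other two. Without it the change was 2.45, and with slide as a fixed block, which rests on it, 4.93. With the authors' value table taken by its deposited labels, the change was 0.50. The 3 other probes named Hspa1a rose by 1.43 to 3.08. Hspa1a has a near-identical neighbour, Hspa1b, on chromosome 17, and no probe was assigned to Hspa1b here, so the values may hold RNA of both genes.

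Promoter windows of 300 bases around the start of transcription, most of each upstream, were taken from RefSeq on GRCm38.p6 and are shown for 4 chaperone genes because their RNAs responded so differently. Capitals mark GAANNTTC or TTCNNGAA, 2 facing units of a heat shock element, where N is any base. Each of these 2 motifs reads the same on the opposite strand, they can overlap by 1 unit, and 17.0% of the 27025 genes with a window hold at least 1 of them.
Hspa1a, chr17:34972107-34972406, minus strand: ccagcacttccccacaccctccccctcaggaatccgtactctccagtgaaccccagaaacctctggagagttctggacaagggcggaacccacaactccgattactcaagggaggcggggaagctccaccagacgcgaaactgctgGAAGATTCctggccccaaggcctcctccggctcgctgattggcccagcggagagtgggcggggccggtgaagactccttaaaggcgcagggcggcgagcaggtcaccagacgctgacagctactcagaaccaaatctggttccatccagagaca
Hspb1, chr5:135887669-135887968, plus strand: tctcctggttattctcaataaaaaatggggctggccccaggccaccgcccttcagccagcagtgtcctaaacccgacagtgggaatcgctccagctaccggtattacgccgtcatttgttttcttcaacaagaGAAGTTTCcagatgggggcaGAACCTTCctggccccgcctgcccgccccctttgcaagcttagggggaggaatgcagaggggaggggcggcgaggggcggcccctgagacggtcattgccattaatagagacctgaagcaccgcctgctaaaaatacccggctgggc
Hsph1, chr5:149636287-149636586, minus strand: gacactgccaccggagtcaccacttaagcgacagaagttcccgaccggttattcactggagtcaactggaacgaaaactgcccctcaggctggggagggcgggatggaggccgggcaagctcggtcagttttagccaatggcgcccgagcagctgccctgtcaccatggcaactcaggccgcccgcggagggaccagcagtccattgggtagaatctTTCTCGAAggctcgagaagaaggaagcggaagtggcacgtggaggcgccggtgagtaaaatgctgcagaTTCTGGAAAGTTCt
Hspd1, the second of 2 windows, chr1:55087883-55088182, minus strand: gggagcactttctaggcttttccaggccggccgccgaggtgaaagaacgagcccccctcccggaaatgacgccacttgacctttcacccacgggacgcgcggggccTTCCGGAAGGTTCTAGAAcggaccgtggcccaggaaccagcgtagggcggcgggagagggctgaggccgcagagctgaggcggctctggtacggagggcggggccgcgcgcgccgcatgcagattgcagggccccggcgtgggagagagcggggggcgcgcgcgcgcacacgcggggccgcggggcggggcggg
The Hspa1a window holds 1 such motif and matched that of Hspa1b at 98.7% of 300 bases. The windows shown for Hsph1 and Hspd1 hold 3 each, all overlapping in Hspd1 and 2 of the 3 in Hsph1, and that of Hspb1 holds 2. The first window of Hspd1, not shown, holds 0, and a second window of Hsph1, also not shown, holds 3. A run of 3 units (GAANNTTCNNGAA or TTCNNGAANNTTC) was in 0.662% of the 27025 genes with a window, and in 5 of the 77 tested chaperone genes with a window: Chordc1, Dnajb6, Hspd1, Hspe1 and Hsph1. Of those 5, Hspd1 fell and the other changes, from -0.04 to 0.13, did not pass the test. The run was in 0.438% of genes called higher with a window and in 0.243% of those called lower, against 0.488% of genes tested.

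**Figure D1:**
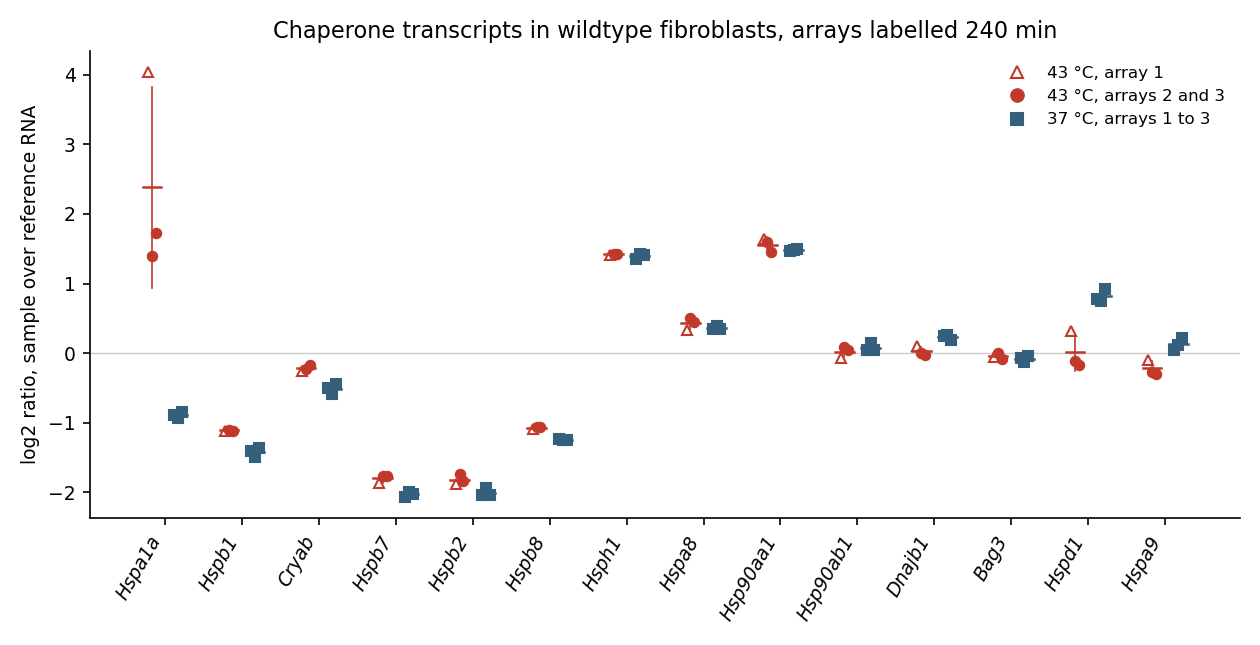
Log2 ratio of sample over reference RNA (vertical axis) for 14 chaperone and co-chaperone transcripts on the 3 heat shock arrays (43 °C, red, left) and the 3 baseline arrays (37 °C, blue, right); bars are the mean and SD. Hspa1a reached 4.04, 1.39 and 1.72 at 43 °C, against -0.89, -0.93 and -0.85 at 37 °C, while Hsph1, Hspa8, Hsp90aa1, Hsp90ab1 and Bag3 overlapped between the groups.

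Outside the small heat shock proteins, several other cytosolic chaperones that heat is known to induce did not pass the test or fell. Hsph1, the HSP110 that recharges HSP70 with nucleotide, lay at 1.41, 1.43 and 1.43 on the heat shock arrays and at 1.36, 1.43 and 1.40 on the baseline arrays (change 0.03, adjusted p = 0.81). Hsp90aa1, the inducible cytosolic HSP90, was at 1.64, 1.59 and 1.45 after heat and at 1.47, 1.48 and 1.49 at baseline (0.08, adjusted p = 0.55). These groups overlapped. Hspa8, the constitutive HSP70, changed by 0.07 and Hsp90ab1 by -0.06, Bag3, an HSP70 cofactor of selective autophagy, by 0.03 and Hsf1 by 0.09, and none of the 4 passed the test. Dnajb1, the main inducible HSP40, fell. It was at 0.10, 0.00 and -0.02 on the heat shock arrays and at 0.24, 0.26 and 0.19 on the baseline arrays (change -0.20, SE 0.05, adjusted p = 0.0051), although its other probe was not called and the call was lost with slide as a fixed block.

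Of the 10 genes tested in the list of HSP70 and HSP110 genes, Hspa1a rose and Hspa13 fell by 0.38. Of the 20 tested in the list of DNAJ co-chaperones 3 rose and 4 fell. Over all genes tested, 18.8% were called higher and 12.7% lower at an adjusted p of 0.05. Among 15 genes for HSP90 and its co-chaperones, Cdc37, which brings kinases to HSP90, rose by 0.15 and Ahsa1, which speeds its ATPase, fell by 0.20. Among the HSP70 cofactors, Bag1 rose by 0.21 and Bag6 by 0.20, while Bag5 fell by 0.47. The 14 subunits of the CCT chaperonin and prefoldin, which fold actin and tubulin, held 1 called member, Pfdn6, which rose by 0.20. Hspa1a kept its call with slide as a fixed block, and Hspa13, Cdc37, Ahsa1, Bag1, Bag5, Bag6 and Pfdn6 lost theirs.

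The small heat shock proteins, holdases that keep unfolded proteins soluble, rose more often than they fell. Of 9 tested, 5 rose (55.6% against 18.8% of all genes) and 0 fell (against 12.7%). All 9 changes were above 0, as were 8697 of 13486 over all genes. The median of the list was 0.17, against 0.06 over all genes tested. The median stayed above 0 under every alternative run on the arrays' own scanner files, with 0.06 under median centring, where 1 member was called, and 0 members were called with slide as a fixed block. Hspb1, known as HSP25, was at -1.12, -1.10 and -1.11 on the heat shock arrays and at -1.41, -1.49 and -1.36 on the baseline arrays (change 0.31, SE 0.08, adjusted p = 0.0034). Cryab, αB-crystallin, was at -0.26, -0.23 and -0.17 after heat and at -0.50, -0.59 and -0.45 at baseline (0.29, adjusted p = 0.0014), and its second probe also rose. Neither pair of groups overlapped. Hspb7 rose by 0.23, Hspb2 by 0.19 and Hspb8 by 0.17.

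Of 19 mitochondrial chaperones and proteases 6 rose (31.6% against 18.8% of all genes) and 2 fell (10.5% against 12.7%), with a median of 0.12, and the 2 that fell were the HSP60 and HSP70 genes. Hspd1, which encodes HSP60, was at 0.31, -0.11 and -0.17 on the heat shock arrays, against 0.78, 0.75 and 0.92 on the baseline arrays (change -0.81, SE 0.12, adjusted p = 2.5e-05). Its partner Hspe1, HSP10, which is read from the same divergent promoter, lay at 1.53, 1.58 and 1.54 after heat and at 1.42, 1.39 and 1.44 at baseline, a change of 0.13 with an adjusted p of 0.099. Hspd1 was lower on every heat shock array, whereas the values of Hspe1 were slightly higher without passing the test. Hspa9, the HSP70 of mitochondria, fell by 0.35 (adjusted p = 0.0011), with its other probe not called. The rises included the disaggregase Clpb by 0.27, whose other probe was not called, the inner membrane protease Yme1l1 by 0.25 and the iron-sulphur cochaperone Hscb by 0.32. In the endoplasmic reticulum 5 of 25 genes rose and 6 fell. Hyou1 rose by 0.22 and Pdia4 by 0.20, whereas Edem1 fell by 0.43 and Sel1l by 0.34, both part of the disposal of misfolded glycoproteins. Neither of the 2 other probes of Edem1 was called, at 0.20 and -0.08, its mean over probes was -0.11 (adjusted p = 0.15), and the other probe of Sel1l was not called. Hscb and Sel1l kept their calls with slide as a fixed block, while Hspd1 (-0.51), Hspa9 (-0.22), Clpb, Yme1l1, Hyou1, Pdia4 and Edem1 lost theirs. With median centring Hscb lost its call, as did Hspa9, Clpb, Yme1l1, Hyou1 and Pdia4, while Hspd1, Edem1 and Sel1l kept theirs. Hspa5, the chaperone BiP, changed by -0.02 and did not pass the test.

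Across the transcriptome 4243 genes were called, 31.5% of those tested, with 2529 higher and 1714 lower in heated cells. Rises were more numerous and smaller: the median change was 0.23 among the calls that rose and -0.32 among those that fell. Past 1.5-fold there were 168 calls, of which 7 were higher and 161 lower. That count was 274 without heat shock array 1, 67 with the mean over probes, 74 with the slide block, 370 with an offset of 10, 547 with median centring and 622 with the scanner software's ratio. The share of rises depends on the scaling. Of all calls 59.6% were higher with loess, 44.0% with the ratio computed by the scanner software, and 4.32% with median centring, where 80 genes were higher and 1772 lower. The median change over all genes was 0.06 with loess and -0.03 with median centring. With slide as a fixed block 618 genes were called, of which 597 were among the 4243.

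**Figure D2:**
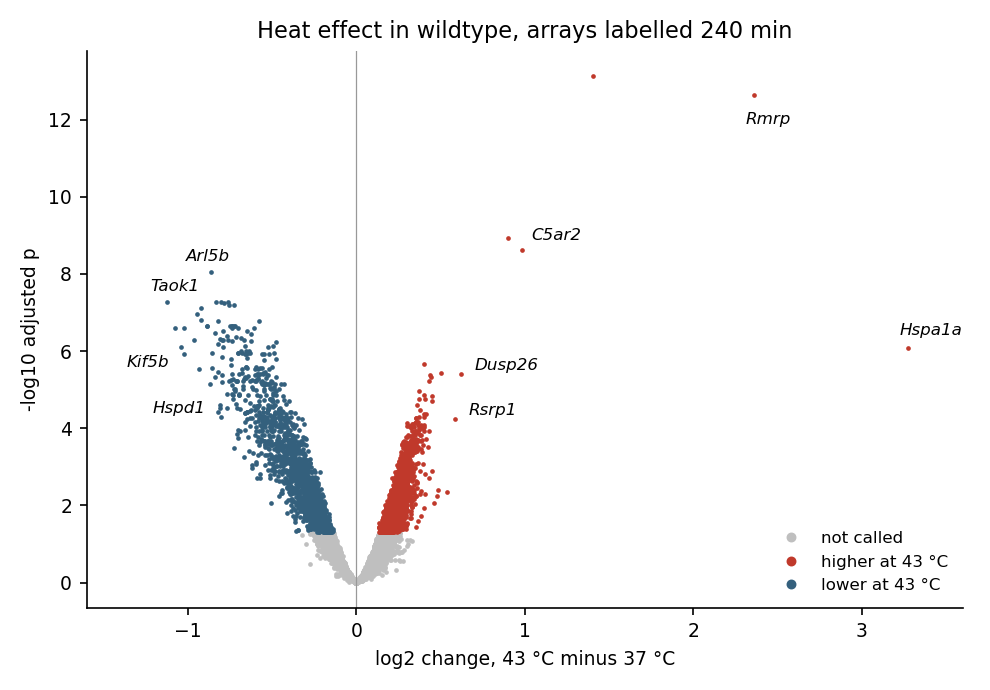
Log2 change at 43 °C minus 37 °C (horizontal axis) against -log10 of the adjusted p (vertical axis) for the 13486 genes tested; red points were called higher, blue points lower and grey points were not called. Hspa1a at 3.27 and Rmrp at 2.36 stand apart on the right, and the left side holds 161 of the 168 calls past 1.5-fold.

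The 5 named genes that rose past 1.5-fold were Hspa1a, Rmrp, C5ar2, Dusp26 and Rsrp1; the other 2 features had no gene name. Rmrp, the RNA of a nuclease that processes ribosomal RNA precursors, was at 2.54, 2.28 and 2.48 on the heat shock arrays, against -0.12, 0.19 and 0.15 on the baseline arrays. The change was 2.36 (SE 0.13, adjusted p = 2.3e-13), and the heat shock arrays lay close together. C5ar2, a receptor for the complement fragment C5a, was at 0.87, 0.82 and 1.03 on the heat shock arrays, whereas its probe was not well above background on any baseline array. It was at least 1.78-fold higher, counted against the dimmest signal well above background there. Its call in limma rests on baseline values near background, and the change moved with the offset. It was 0.99 with the offset of 50 and 2.04 with an offset of 10, so only the bound is to be read. Dusp26, a phosphatase of MAP kinases, was at -2.26, -2.06 and -2.11 after heat and at -2.81, -2.72 and -2.75 at baseline (0.62, adjusted p = 4.0e-06). Rsrp1, an arginine and serine rich nuclear protein, rose by 0.59. Smaller rises that left the groups apart were those of Cck by 0.45, Rpl39l by 0.45, Nmral1 by 0.44, Rab8a by 0.43 (the other probes of Rpl39l and Rab8a were not called, and Rab8a lost its call with slide as a fixed block), Psmg3 by 0.41 and Dynlrb1 by 0.40. Of genes with 2 or more probes that were all called higher, Mgst3 rose by 0.39 to 0.41 and Tyms by 0.35 to 0.37. With median centring Rpl39l, Rab8a, Psmg3 and Tyms lost their calls.

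The largest fall among genes tested was that of Taok1. Taok1, a kinase upstream of p38 and the Hippo pathway, was at -1.23, -1.46 and -1.57 on the heat shock arrays, against -0.22, -0.32 and -0.37 on the baseline arrays. Its change was -1.12 (SE 0.11, adjusted p = 5.4e-08), and both other probes of the gene were also called lower. Mib1, a ubiquitin ligase for Notch ligands, was at -0.99, -1.31 and -1.41 after heat and at -0.16, -0.19 and -0.13 at baseline (-1.08). Kif5b, the heavy chain of conventional kinesin, was at -0.14, -0.44 and -0.62 on the heat shock arrays and at 0.56, 0.69 and 0.69 on the baseline arrays (-1.04). These falls were taken from calls whose groups did not overlap, so the separation of the arrays was fixed by the choice. Over all genes tested, 33.9% were higher and 17.7% lower after heat without overlap of the groups. In all 3 genes heat shock array 1 was the nearest to baseline. Further falls were those of the tankyrase Tnks2 (-1.02), the chromatin protein Nucks1 (-1.02), the imprinted zinc finger gene Plagl1 (-0.96), the ubiquitin ligases Rlim (-0.94) and Ube3a (-0.87), the DNA-binding protein Purb (-0.92), the BMP receptor Bmpr2 (-0.89), the insulin receptor substrate Irs1 (-0.89), the small GTPase Arl5b (-0.86) and the deadenylase Cnot6 (-0.85). Every probe tested was called lower for Taok1, Kif5b, Tnks2, Purb, Bmpr2, Ube3a and Cnot6. For Mib1, Nucks1, Plagl1, Rlim, Irs1 and Arl5b no other tested probe was called lower. Over all falls past 1.5-fold, 121 genes had another tested probe, and in 50 of them all other probes were called lower too.

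**Figure D3:**
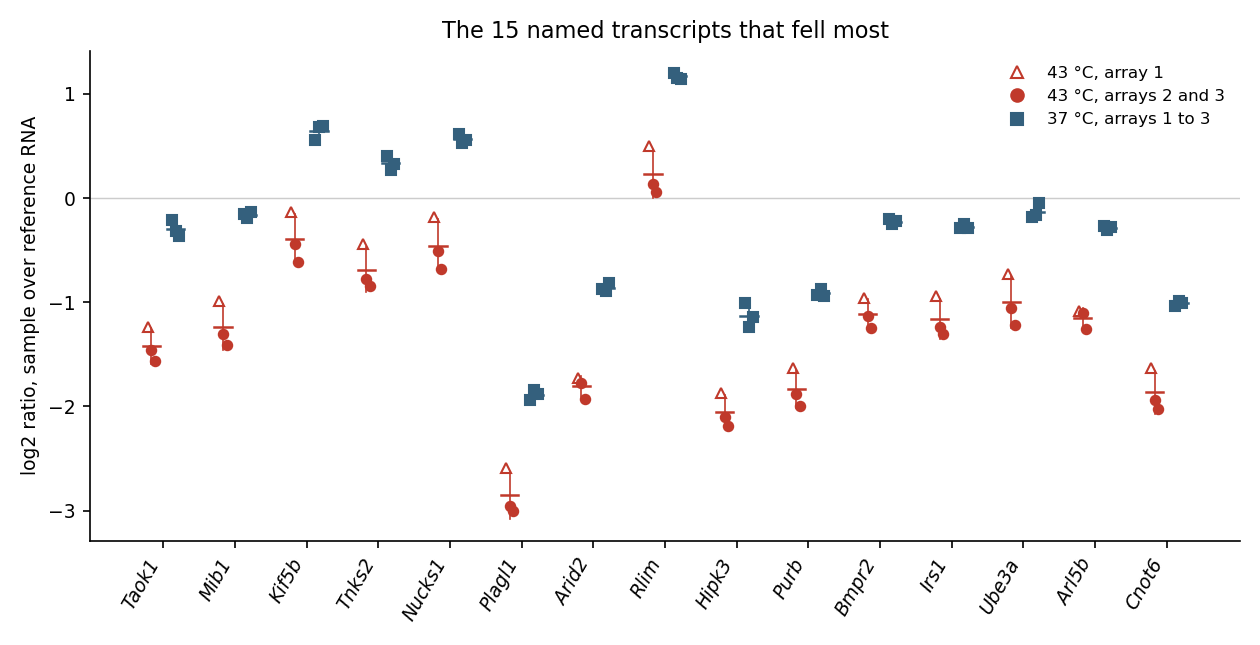
Log2 ratio of sample over reference RNA (vertical axis) for the 15 named transcripts with the largest falls, on the 3 heat shock arrays (43 °C, red, left) and the 3 baseline arrays (37 °C, blue, right); bars are the mean and SD. The genes were chosen among calls in which all heat shock arrays lie below all baseline arrays, as for Taok1 at -1.23, -1.46 and -1.57 against -0.22, -0.32 and -0.37.

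Of 42 tested genes for polycomb proteins and chromatin remodellers 20 fell (47.6% against 12.7% of all genes), 2 rose and 20 were not called, with a median of -0.14 against 0.06 over all genes, and the median stayed below 0 under every alternative run on these scanner files. Arid2, a subunit of the PBAF remodeller, was at -1.73, -1.77 and -1.93 on the heat shock arrays, against -0.88, -0.89 and -0.82 on the baseline arrays (-0.95, adjusted p = 1.1e-07). Suz12, a core subunit of polycomb repressive complex 2, was at -0.28, -0.40 and -0.54 after heat and at 0.31, 0.24 and 0.31 at baseline (-0.69). Setd2, the histone methylase of transcribed genes, fell by 0.59, Smarcc1 by 0.57, Brd3 by 0.57 and the acetylase Crebbp by 0.43. The called rises were those of Smarcb1 by 0.21 and Smarcc2 by 0.24. Ezh2, the catalytic partner of Suz12, changed by 0.04 and did not pass the test. The genes of this list had a median length of 66.8 kb, against 22.6 kb over all genes tested. The other probes of Suz12 and Crebbp were not called, and with slide as a fixed block Setd2, Crebbp, Smarcb1 and Smarcc2 lost their calls.

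Immediate early genes are switched on within minutes by serum and stress. Of 30 tested, 13 fell (43.3% against 12.7% of all genes), 1 rose and 16 were not called, and 7 of 14 Kruppel-like transcription factors fell with 0 that rose. The medians were -0.14 and -0.21, and both stayed below 0 under every alternative run on these scanner files. Errfi1, a feedback inhibitor of the EGF receptor, was at -0.60, -0.71 and -0.73 on the heat shock arrays, against 0.01, 0.07 and -0.01 on the baseline arrays (-0.70, adjusted p = 2.5e-07). Klf6 was at 0.15, -0.03 and 0.00 after heat and at 0.70, 0.63 and 0.68 at baseline (-0.63), Klf4 fell by 0.59 and Klf5 by 0.56. The matrix signal Ccn1 fell by 0.57, Jun by 0.32, Myc by 0.31 and Egr1 by 0.28. Fos itself changed by -0.04 and did not pass the test, and Gadd45b rose by 0.27. In the feedback of ERK signalling, 7 of 18 genes fell and 3 rose. Dusp6, the ERK phosphatase, was at -0.51, -0.53 and -0.70 on the heat shock arrays, against 0.12, 0.06 and 0.06 on the baseline arrays (-0.66, adjusted p = 7.5e-07). Spred1 fell by 0.54, Spry2 by 0.47 and Spry1 by 0.43, while Dusp10 rose by 0.22 and Dusp19 by 0.21. The other probe of Spry2 was not called, at 0.14, and with slide as a fixed block Jun, Myc, Egr1, Gadd45b, Spry1, Spry2, Dusp10 and Dusp19 lost their calls.

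The title of the series names DAXX and p53, whose genes did not pass the test, and the genes listed with them were mixed. Trp53, the gene for p53, was at 0.10, 0.00 and 0.07 on the heat shock arrays and at -0.05, -0.01 and -0.14 on the baseline arrays (0.12, adjusted p = 0.12). Daxx was at -0.21, -0.35 and -0.37 after heat and at -0.24, -0.14 and -0.25 at baseline (-0.10, adjusted p = 0.21), and those groups overlapped. The HIPK kinases, of which HIPK2 phosphorylates p53, had probes that disagreed. By its brightest probe Hipk3 was at -1.87, -2.11 and -2.19 on the heat shock arrays, against -1.01, -1.24 and -1.15 on the baseline arrays (-0.92), Hipk2 changed by -0.79 and Hipk1 by -0.54. The other probe of Hipk3 changed by -0.01 and that of Hipk2 by 0.09, neither called, while of the 2 others of Hipk1 one was called higher at 0.17, and its mean over probes was -0.08 (adjusted p = 0.17). Usp7, the deubiquitinase of MDM2 and p53, fell by 0.66, and Pml, which gathers DAXX in nuclear bodies, rose by 0.27, its other probe not called. Pml lost its call with median centring (0.13, adjusted p = 0.33). Of 17 genes in this list 6 fell (35.3% against 12.7% of all genes) and 1 rose (5.88% against 18.8%). The falls include Hipk1, Hipk2 and Hipk3, and with the mean over probes 4 members fell and 2 rose.

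Among p53 targets in cell death, 3 of 18 rose (16.7% against 18.8% of all genes) and 4 fell (22.2% against 12.7%). Their median was 0.03, or -0.07 with median centring. Bax, the pore-forming killer of the BCL2 family, was at 1.76, 1.71 and 1.69 on the heat shock arrays and at 1.40, 1.40 and 1.47 on the baseline arrays (0.30, adjusted p = 3.5e-04). With median centring Bax changed by 0.22 and lost its call (adjusted p = 0.33). Trp53inp1 was at -0.84, -0.99 and -1.04 after heat and at -0.15, -0.19 and -0.27 at baseline (-0.75, adjusted p = 6.4e-08). Zmat3 fell by 0.71 and Pmaip1, known as Noxa, by 0.32. Of 21 genes for arrest, repair and feedback 0 rose and 4 fell: Mdm2, whose product marks p53 for degradation, fell by 0.58 (adjusted p = 5.4e-05), while Cdkn1a, the p21 inhibitor, changed by 0.15 with an adjusted p of 0.12. Of the survival genes, Mcl1 fell by 0.48 and Cflar, the FLIP inhibitor of caspase activation, by 0.76, and Bak1 rose by 0.20. One of the 2 other probes of Cflar was not called, and with slide as a fixed block Pmaip1, Mdm2 and Bak1 lost their calls.

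In mitosis 9 of 38 genes fell (23.7% against 12.7% of all genes), 3 rose and 26 were not called, with the kinetochore proteins Cenpf (-0.56) and Cenpe (-0.51) and the cytokinesis factor Ect2 (-0.39) lowest, and Bub1 (0.29) and Cdk1 (0.21) highest among the calls. With slide as a fixed block 0 mitosis genes were called lower, and Cenpf changed by -0.40 (adjusted p = 0.063), Cenpe by -0.23 (adjusted p = 0.34) and Ect2 by -0.13 (adjusted p = 0.61). Bub1 and Cdk1 lost their calls with median centring. DNA replication genes rose in 9 of 37 cases and fell in 0, 24.3% against 18.8% of all genes, and their median of 0.07 became -0.01 with median centring. Tyms, thymidylate synthase, was at 1.60, 1.71 and 1.58 on the heat shock arrays, against 1.24, 1.24 and 1.30 on the baseline arrays (0.37). With median centring Tyms changed by 0.34 and lost its call (adjusted p = 0.067). Of the entry into the cycle, Cdk6 fell by 0.79, E2f3 by 0.66 and Ccnd2 by 0.36, and 0 of 20 genes rose. No other probe of Cdk6 or E2f3 was called, and Ccnd2 lost its call with slide as a fixed block.

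Of 34 genes for sterol and fatty acid synthesis 10 fell (29.4% against 12.7% of all genes) and 3 rose, while the list's median was 0.04, or -0.05 with median centring. Hmgcs1, an early enzyme of cholesterol synthesis, was at -0.65, -0.86 and -0.92 on the heat shock arrays, against -0.06, 0.05 and 0.04 on the baseline arrays (-0.82, adjusted p = 3.5e-06). Stard4 fell by 0.68, the desaturase Scd2 by 0.62 and the elongase Elovl6 by 0.47. The other probes of Hmgcs1 and Stard4 were not called. The 2 probes of Fdps were called in opposite directions, at 0.23 and -0.20. Of 34 kinesin and dynein genes 8 fell and 3 rose. Beside Kif5b, the dynein subunit Dync1li2 fell by 0.55 and Kif2a by 0.50, and no other probe of either was called. Elovl6 and Kif2a lost their calls with slide as a fixed block.

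Of 77 mitochondrial ribosomal proteins 43 rose and 0 fell (55.8% against 18.8% of all genes), with a median of 0.19. Mrpl21 was at 1.16, 1.17 and 1.15 on the heat shock arrays, against 0.81, 0.72 and 0.75 on the baseline arrays (0.40, SE 0.07, adjusted p = 9.3e-05). Of 75 genes of oxidative phosphorylation 31 rose and 0 fell, with a median of 0.15, led by the complex I subunit Ndufa11 at -0.43, -0.43 and -0.32 after heat and at -0.85, -0.68 and -0.80 at baseline (0.38). Of 76 cytosolic ribosomal proteins 27 rose and 0 fell, with a median of 0.16. Rpl14 was at 1.70, 1.90 and 1.89 on the heat shock arrays, against 1.48, 1.43 and 1.57 on the baseline arrays (0.34). In the proteasome 19 of 44 genes rose, with a median of 0.14, among them the assembly factor Psmg1 by 0.35 and the base factor Psmd9 by 0.31. The single fall was that of Psme4, the PA200 activator, by 0.48, and neither of its other probes, nor the other probe of Psmd9, was called. Rpl14, Psmd9 and Psme4 lost their calls with slide as a fixed block.

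The medians of these 4 lists stayed above 0 under every alternative run on the 6 arrays' own scanner files, but their calls did not. With an offset of 10 the median over all genes tested was 0.07. The list medians were then 0.18 for mitochondrial ribosomal proteins, 0.10 for oxidative phosphorylation, 0.07 for cytosolic ribosomal proteins and 0.13 for the proteasome. There 6 of 76 cytosolic ribosomal proteins were called higher, against 1656 of 13486 genes. With median centring 0 of the mitochondrial ribosomal proteins, 3 of the oxidative phosphorylation genes, 17 of the cytosolic ribosomal proteins and 0 of the proteasome genes were called higher, and with slide as a fixed block 7, 2, 2 and 1. Lysosomal genes rose in 10 of 31 cases (32.3% against 18.8% of all genes) and fell in 1 (3.23% against 12.7%). The rises included the glycosidases Gla (0.32) and Gusb (0.28). Matrix glycoproteins rose in 11 of 37 cases (29.7%) and fell in 1 (2.70%), with rises of Bgn by 0.36, Fbln1 by 0.35 and Fn1 by 0.29. Median centring left 0 called members in either list. With slide as a fixed block 0 members of either list were called.

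**Figure D4:**
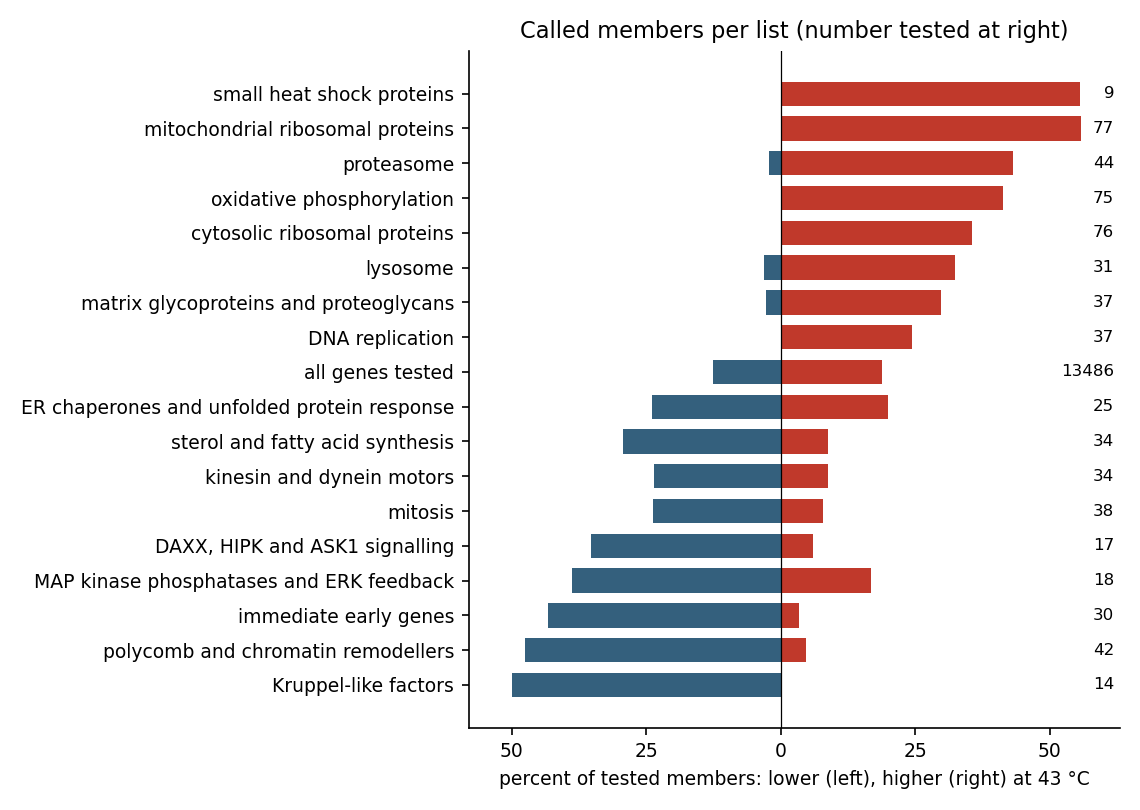
Percent of the tested members of each list called lower (blue, left of 0) or higher (red, right of 0) at 43 °C, with the number tested at the right. Mitochondrial ribosomal proteins had 55.8% higher and 0 lower, 7 of 14 Kruppel-like factors were lower and 0 higher, and all genes tested 18.8% higher and 12.7% lower.

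Calls were related to gene length. The median genomic length from RefSeq was 47.2 kb for genes that fell, 13.8 kb for genes that rose and 22.6 kb for genes not called. Falls past 1.5-fold had a median of 55.6 kb. Genes were put in 5 equal classes by length. In the shortest class, up to 7.39 kb, 28.7% rose and 4.69% fell, and in the longest class, over 67.6 kb, 10.3% rose and 22.6% fell. The median change was 0.11 in the shortest class and -0.02 in the longest. This order held within each of 5 classes of probe brightness, by 0.04 against 0.00 in the dimmest class and by 0.15 against -0.07 in the second brightest. The same order was seen in CHIP null cells at 240 min, with 0.13 and -0.01, and in wildtype cells under the 30 min label, with 0.07 and -0.03. The immediate early genes stood outside it, since the members of that list had a median length of 4.02 kb while 43.3% fell. Length was known for 88.7% of genes called higher and 90.1% of those called lower, and genes are not independent replicates.

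**Figure D5:**
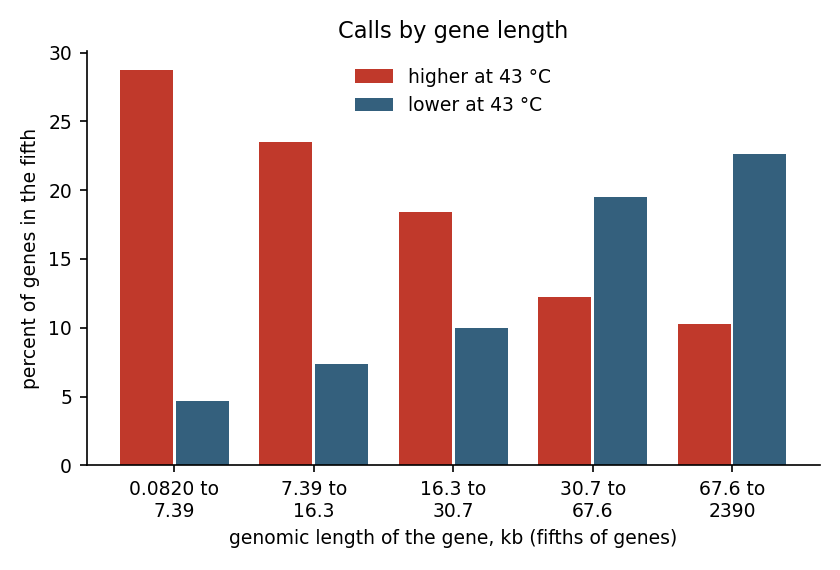
Percent of genes called higher (red) or lower (blue) at 43 °C (vertical axis) in 5 equal classes of genes by genomic length in kb (horizontal axis). The share called higher is 28.7% in the shortest class and 10.3% in the longest, and the share called lower is 4.69% and 22.6%.

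The heat effect was set against that of CHIP(-/-) cells on the arrays labelled 240 min. No gene passed the test of the difference between the genotypes in limma: 0 of 13486 were called, 471 had an unadjusted p below 0.05, and the smallest adjusted p was 1. Hspa1a rose by 3.27 in wildtype and by 2.24 in CHIP null cells, a difference of 1.03 (SE 0.57, adjusted p = 1). In CHIP null cells the heat shock arrays gave 2.21 and 0.78, with the spot of the other array left out as an outlier, against -0.79, -0.70 and -0.76 on their baseline arrays. Taok1 changed by -1.12 in wildtype and -1.14 in CHIP null cells, Hspd1 by -0.81 and -0.83, Rmrp by 2.36 and 2.59, and Trp53inp1 by -0.75 and -0.60. A missed threshold does not show that the genotypes respond alike.

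Against the heat effect in wildtype cells under the 30 min label, 170 genes differed, 100 with a higher change under the 240 min label (0.742% of genes tested) and 70 with a lower one (0.519%). Hspa1a was called under the 240 min label only, and its difference of 2.89 passed the test (SE 0.54, adjusted p = 0.0047). Under the 30 min label it was at -0.33, -0.04 and -0.62 on the heat shock arrays, against -0.74, -0.72 and -0.68 on the baseline arrays, a change of 0.38 with an adjusted p of 0.55. Rmrp rose under both labels, by 2.36 and 1.94, and that difference did not pass the test. Taok1 fell by 1.12 and, under the 30 min label, by 0.49, Suz12 changed by -0.69 and -0.09, Klf5 by -0.56 and 0.03, and Myc by -0.31 and 0.12, and all 4 differences passed. Of the mitosis list 10 genes had a higher change under the 240 min label and 0 a lower one, among them Cdk1 with 0.21 and -0.19.

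Beside Hspa1a, large differences between the labels were those of genes active in phagocytes. Lyz2, macrophage lysozyme, was at -2.63, -2.71 and -2.75 on the 240 min heat shock arrays, against -3.03, -2.70 and -2.86 on their baseline arrays, a change of 0.17 that did not pass the test. On the arrays labelled 30 min it was at -2.06, -2.21 and -1.94 after heat, against 0.04, -0.06 and 0.06 at baseline (-2.09, difference 2.26, adjusted p = 3.5e-13). The value that stood apart was thus the baseline under the 30 min label. Marco differed by 1.75, Adam8 by 1.49 and Ctss by 0.996. Of the 14 macrophage markers 12 were tested under the 240 min label, where 4 rose (33.3% against 18.8% of all genes) and 0 fell. The rises were C1qb by 0.23, Tyrobp by 0.23, Ctss by 0.21 and C1qa by 0.20. With median centring these changes were 0.09, 0.10, 0.07 and 0.06, and Ctss lost its call. The summed signal of the 14 markers was 1597 to 1709 on the heat shock arrays and 1419 to 1558 on the baseline arrays. Ptprc was not well above background on any of the 6, and the part of macrophages in the changes above was not tested. The 12 fibroblast markers were all well above background on the 6 arrays, and summed to 56394 to 59254 after heat and 54425 to 55952 at baseline. Of them 2 rose (16.7% against 18.8% of all genes) and 2 fell (16.7% against 12.7%).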

How the data were processed

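The cultures were hybridised to Agilent whole mouse genome arrays, 1 array each, with Cy5 sample RNA and Cy3 universal mouse reference RNA. Per the file headers, the authors' scanner files came from Agilent Feature Extraction 9.1.3.1 and hold mean and background intensity for each spot and a log10 ratio of Cy5 over Cy3, background-subtracted and dye-normalised. The deposited value table is a score of unstated scale and was used as an alternative only. For this it was brought to the log2 scale by an inferred constant. The mean of the baseline columns of the same genotype and time label was then added to each heat shock column. Rebuilt in this way, its columns follow those ratios, but under swapped times.

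Intensities of the 24 arrays were background corrected with normexp (offset 50), 333 outlier spots were left out, and log2 ratios, computed from the deposited intensities, were normalised by loess within each array in limma 3.58.1 (R 4.3.3). Probes were named through RefSeq by accession, symbol or synonym, and 8455 of 41174 kept the name in the file. A gene was its brightest probe and was tested where some group had that probe well above background (Cy5) on each of its 3 arrays, which left 13486 genes. One linear model over 8 groups, with 16 residual degrees of freedom and Benjamini-Hochberg adjustment over all genes, gave the heat effect and its differences from CHIP null cells and from the 30 min label. A call is an adjusted p under 0.05. The number of arrays limits the precision. The code was tested on simulated data.

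Named genes were the 15 largest rises and falls among calls with groups that did not overlap, the 10 largest each way among genes whose probes all agreed, the 3 largest each way in every gene list, 17 core heat shock and p53 genes, and the 8 largest differences each way. Hspb2, Hspb8, Smarcc1, Brd3, Crebbp, Jun, Egr1, Spry1, Hipk1, Elovl6, Fn1, Tyrobp, C1qa and C1qb lie outside this rule and were chosen after their values were seen, as were the uncalled Chordc1, Dnajb6, Hspe1, Hspa5, Ezh2 and Fos. The members and the lists were chosen with earlier results of these data known. Alternatives were another offset, the scanner software's ratio, median centring, Aquantile, 2 filters on dim probes, the mean over probes, fewer arrays in the fit, slide and replicate blocks, array weights, the value table, and each array left out.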

Additional observations from a re-analysis of the deposited data

Results flagged for a closer look

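The heat effect of 26 named genes differed between the arrays labelled 240 min and those labelled 30 min in wildtype cells, by the test of the difference in the same limma model. All differences are 240 min minus 30 min, on the log2 scale, and the time labels of the scanner files and of the value table disagree, so their direction rests on the labels of the scanner files.

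The difference was 2.89 for Hspa1a, 0.91 for Rsrp1, 0.49 for Nmral1 and 0.35 for Yme1l1. Among genes active in phagocytes it was 2.26 for Lyz2, 1.75 for Marco, 1.49 for Adam8, 0.996 for Ctss and 0.45 for C1qa. In the cell cycle it was 0.40 for Cdk1 and 0.40 for Bub1, and it was 0.38 for Pml. The proteasome assembly factors Psmg1 and Psmg3 differed by 0.34 and 0.33, and the prefoldin subunit Pfdn6 by 0.32.

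The difference was below 0 for C5ar2 at -0.76, which rose under both labels. Its probe was not well above background on the baseline arrays of the main comparison, where its change moved with the offset. Neither the size nor the direction of the C5ar2 difference is therefore to be read as measured. The difference was -0.75 for Stard4, -0.63 for Taok1, -0.60 for Suz12, -0.60 for Errfi1, -0.59 for Klf5 and -0.53 for Bmpr2. It was -0.48 for Cdk6, -0.44 for Arl5b, -0.43 for Myc and -0.39 for Scd2.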

How the results depend on the processing

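The 4243 calls of the heat effect became 2649 with the scanner software's ratio, 1852 with median centring, 618 with slide as a fixed block, and 2620 and 2715 with the value table by matching columns and by deposited labels. Leaving out 1 array gave 2680 to 4269, with 2680 without heat shock array 3 and 2807 without heat shock array 2. The 0 calls of the genotype difference became 1 with the slide block and 59 with the value table by deposited labels, and 0 to 3 with 1 array left out. The 170 calls of the time difference became 102 with an offset of 10 and with either reading of the value table, 28 with median centring, 20 with the slide block, 312 with fewer arrays in the fit and 1019 with array weights, and 87 to 248 with 1 array left out. The readings of the value table swap the time labels of the same columns, so for the time difference they give the same count with opposite signs. Each shared 65 calls with the 170, and 65 kept their direction by matching columns and 0 by deposited labels. With the replicate block 4374 heat effects were called, and of the 133 genes named 1 lost its call. Same-numbered arrays did not deviate together (correlations 0.03, 0.02 and -0.03). That gives no sign of pairing by number, but 3 arrays per group cannot exclude it.

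Of the 133 genes named, 115 were called, and 58 lost the call with slide as a fixed block and 47 with median centring. The cause was not tested. A direction reversed with a call in either fit in 24 genes, in each case with the value table by deposited labels. There the change was 0.00 for Hspb1, -0.27 for Hsph1, -0.51 for Hsp90aa1, -0.08 for Cdc37, -0.02 for Bag1, -0.17 for Pfdn6, -0.06 for Hspb7 and -0.12 for Yme1l1. It was -0.38 for Rsrp1, -0.12 for Nmral1, 0.08 for Klf5, 0.15 for Myc, -0.18 for Pml, -0.28 for Bub1, -0.28 for Cdk1, -0.11 for Gla and -0.10 for Fn1. It was -2.34 for Lyz2, -2.23 for Marco, -1.61 for Adam8, -1.67 for Ctss, -0.56 for C1qb, -0.67 for Tyrobp and -1.15 for C1qa. Changes that did not pass the test also turned sign: with median centring Hsp90ab1 was 0.06, Hspa5 0.05, Trp53 -0.06, Ezh2 -0.13 and Hsf1 -0.02, with the scanner software's ratio Hsp90aa1 was -0.03, with the slide block Chordc1 was 0.11, and by deposited labels Ezh2 was -0.22, Bag3 -0.08, Dnajb6 -0.10 and Fos 0.03. Probes not well above background, such as that of C5ar2 at baseline, give only a bound.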
